A study of Miniopterus schreibersii with 14 samples.

Results

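The 50 components described here are pieces of the bat limb transcriptome whose level stepped down from the posterior to the anterior side of the bud in both forelimb and hindlimb. They were chosen by their own S14 scores, from 64618 assembled components in all. A component, which is a transcript or a piece of one built from the reads, had to average a score of 50 or more in the 6 bud libraries, as 12434 did. Its score also had to be higher in the posterior part than in the middle part, and higher in the middle than in the anterior part, in both limbs. A total of 254 components met this order, and 231 met the mirror-image order from the anterior side. The 50 kept are those of the 254 with the largest gradient, measured as the smaller of the forelimb and hindlimb values of the log2 ratio of posterior to anterior score, with 1 added to each score.

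The libraries came from the autopod, the hand or foot end of the limb, of embryos of the bent-wing bat Miniopterus schreibersii, with 1 library per dissected part. At stage S14 the posterior, middle and anterior parts of the forelimb bud and of the hindlimb bud gave 6 libraries. At stages S15-17 there were 6 more: the wing here means forelimb digits II-V with their interdigital tissue, the thumb side means forelimb digit I with the interdigital tissue that joins it to digit II, and the foot means hindlimb digits I-V with their interdigital tissue, each tissue a library of its own. The last 2 were fetal bones, metacarpals II-V of the wing and metatarsals I-V of the foot. No treatment or mutation is given in the labels, and neither is the number of embryos behind a library. No part had a repeat library, so the spread within a part was not measured, and p-values below measure the spread between matched parts. The scores are normalized counts, and 1 read was worth 1.29 to 2.23 score units, at 4550754 to 7648427 reads per library.

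In vertebrate limb buds, the posterior margin holds the zone of polarizing activity, whose cells secrete the signal Sonic hedgehog. Cells nearer that source receive more signal, the repressor form of the transcription factor GLI3 is made mainly on the anterior side, and the posterior genes of the HoxD cluster are switched on in the posterior part. In mice, digit I forms from the anterior side, and the more posterior digits need Sonic hedgehog. In bats, digit I stays short and free and the posterior digits of the hand lengthen to carry the wing membrane. The deposited table names components by assembly number and gives no gene for any of them, and none of the identifiers matched the RefSeq annotation of this species (0 of 64618 components against 22775 genes). Which of these known genes are among the 50 is therefore not given here, nor is the tissue of each library checked against marker genes.

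The 2 components with the largest gradient differed in shape. Component comp14955_c0 scored 267, 97 and 20 in the posterior, middle and anterior forelimb bud, and 101, 44 and 28 in the same parts of the hindlimb bud, so in the forelimb each step away from the posterior side was over 2-fold. Component comp11247_c0 scored 530, 506 and 71 in the forelimb bud and 247, 225 and 77 in the hindlimb bud. It was nearly level from posterior to middle and low only in the anterior part. These values chose the members, so they are a description and were not tested.

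Among all 50, the drop towards the anterior side was larger in the forelimb than in the hindlimb for 45 components. The log2 ratio of posterior to anterior score had a median of 1.44 in the forelimb, with a range of 0.59 to 7.95, and of 0.95 in the hindlimb, with a range of 0.54 to 2.10. It passed 8-fold for 10 components in the forelimb and for 0 in the hindlimb. The anterior forelimb bud was the lowest of the 6 bud libraries for 42 components and the anterior hindlimb bud for the other 8. The middle part lay nearer the posterior than the anterior level, on the log2 scale, for 40 components in the forelimb and 26 in the hindlimb. These counts were not taken over other components. The 50 components most strongly graded from the anterior side were also steeper in the forelimb at the median, at -0.76 against -0.59, so a steeper forelimb was not particular to the members. In the anterior forelimb bud, 3 components had no read at all (comp9834_c0, comp14421_c0 and comp14504_c0), where 3 reads would have scored 6.70. They were picked out here after their values were seen, and are named by rule in other comparisons. Component comp10884_c0, named only after its values were seen, had 2 reads there and comp14355_c0 had 3. That library held the fewest reads of the 6 buds, 4951055 at 2.23 score units per read, against 6386337 and 1.63 for the anterior hindlimb bud. In the anterior hindlimb bud no member was at 0, and the lowest score was 28. At the limit of the list, comp10004_c0 was the last taken, with a smaller log2 ratio of 0.536, and comp2798_c1 the first left out, at 0.532, so the limit falls at no natural gap. The members were scarcer than the 12434 components with the same minimum, which they are set against below. Their median score was 252 in the posterior forelimb bud, against 318 for the 12434, and 71 in the anterior forelimb bud, against 324. In the S15-17 libraries it was 122 to 156, against 307 to 331.

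**Figure D1:**
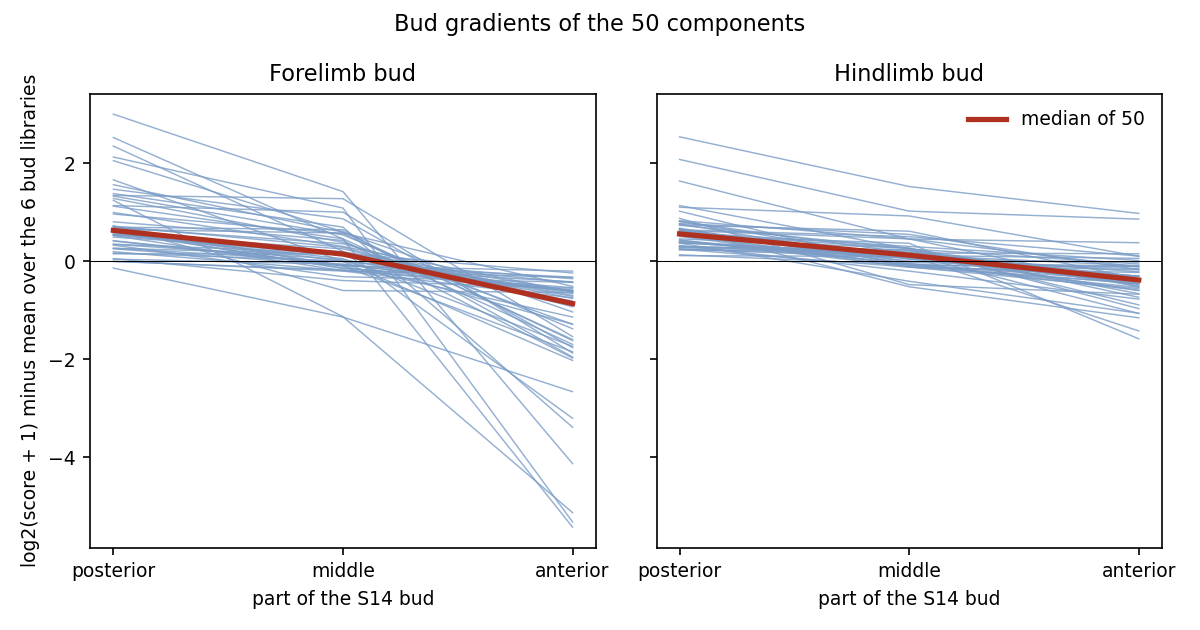
Log2(score + 1) of the 50 components in the posterior, middle and anterior parts of the S14 forelimb bud (left) and hindlimb bud (right), each relative to the component's mean over the 6 bud libraries. Thin lines are components and the thick line is their median, which spans 0.63 to -0.87 in the forelimb and 0.56 to -0.39 in the hindlimb.

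The later libraries had no part in choosing the members and show their levels in the parts dissected at S15-17. More of the members scored higher in the wing than lower, relative to the thumb side. Of the 50, 26 scored higher in the wing in digits and in interdigital tissue alike, against a background of 28.6% of the 12434 components, and 10 scored lower in both tissues, against 31% of them. On the mean of both tissues, 9 exceeded the thumb side by over 2-fold in the wing, against 0.716% of the 12434, and 0 lay over 2-fold below it, against 1.24%. Over the 20429 components that averaged 10 or more across all libraries, which include scarcer ones, those shares were 2.97% and 3.39%. Both wing libraries lay above both thumb side libraries for 22 members, against 16.9%, and below both for 7, against 19%. Of the 6 libraries of S15-17, a thumb side library was the lowest for 28 members, which is 56%, where it was the lowest for 30.1% of the 12434. The median log2 difference, wing minus thumb side, was 0.46 over the members and -0.01 over the 12434. It was 0.25 between the digits and 0.43 between the interdigital tissues, and the fitted median was 0.23 without the wing interdigital library. The exact 95% interval of the pooled read ratio of wing to thumb side, which covers counting error only, lay above 1 for 27 members and below 1 for 7. These intervals were not computed for the other components, so no background share stands beside the counts and nothing is read from them.

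The clearest case was comp1674_c0, named after its values were seen. It scored 1610, 1001 and 58 in the posterior, middle and anterior forelimb bud and 1358, 735 and 594 in the hindlimb bud. At S15-17 it scored 550 in wing digits and 443 in wing interdigital tissue, against 85 in digit I and 77 in the interdigital tissue next to it. In foot digits and foot interdigital tissue it scored 483 and 257. The thumb side thus lay near the level of the anterior forelimb bud, and the wing and foot libraries were all higher, with no overlap. The pooled reads gave a ratio of wing to thumb side of 6.17 (exact 95% interval 4.95 to 7.77). Its log2 difference was 2.59 (SE 0.23), and it just missed the threshold in limma (adjusted p = 0.055, higher in 2 of 2 tissues).

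Components comp14421_c0 and comp14504_c0 had the largest log2 differences between wing and thumb side. Component comp14421_c0 scored 247, 58 and 0 in the posterior, middle and anterior forelimb bud, and 133, 58 and 55 in the hindlimb bud. In the wing it scored 38 in digits and 15 in interdigital tissue, against 0 and 0 on the thumb side, while foot scores were 31 and 18. It was listed at 0 in the anterior forelimb bud and on the thumb side and in no other library. With 31 reads in the wing and a floor of 3 reads over both thumb side libraries, it was at least 10.2-fold higher in the wing against that floor, and the exact 95% interval of the ratio, which also covers counting error in the wing reads, began at 7.78. Component comp14504_c0 scored 174, 84 and 0 in the forelimb bud, 85, 75 and 42 in the hindlimb bud, 23 and 12 in the wing, and 0 and 1 on the thumb side, while foot scores were 22 and 19. It rested on 20 wing reads and 1 thumb side read, a ratio of 19.7 (exact 95% interval 3.14 to 815). In limma, neither passed the threshold (log2 difference 4.64, SE 0.52, adjusted p = 0.078 for comp14421_c0, and 3.64, SE 0.59, adjusted p = 0.19 for comp14504_c0). With scores at or near 0 on the thumb side, both log2 differences depend on the 1 added to each score.

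Wide differences were also seen for comp14355_c0 and comp12061_c0, the second named after its values were seen. Component comp14355_c0 scored 376, 84 and 7 in the posterior, middle and anterior forelimb bud and 149, 67 and 62 in the hindlimb bud. It scored 106 and 78 in wing digits and interdigital tissue, against 6 and 17 on the thumb side and foot scores of 60 and 18. Its wing libraries were above both others in each tissue (wing minus thumb side log2 difference 3.03, SE 0.69, limma adjusted p = 0.30). Component comp12061_c0 had a shallower forelimb bud gradient of 125, 77 and 40, and scored 214 and 271 in the wing, against 60 and 87 on the thumb side and foot scores of 274 and 298. Its wing and foot scores were all above every bud score, and only its thumb side stayed at bud levels (wing minus thumb side 1.72, SE 0.21, limma adjusted p = 0.10).

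The other 4 of the 9 components past 2-fold were scarcer or uneven. All 4 were picked out here after their values were seen, and comp9834_c0 and comp11940_c0 are also named by rule in other comparisons. Component comp9834_c0 scored 31 and 33 in wing digits and interdigital tissue, against 9 and 9 on the thumb side, and comp11940_c0 scored 30 and 25, against 11 and 7. Component comp10884_c0 was the most steeply graded of these in the forelimb bud, with 702, 234 and 4 in the posterior, middle and anterior parts, and scored 38 and 17 in the wing, against 4 and 12 on the thumb side. Each of these 3 rested on 10 thumb side reads, and the interval of its wing to thumb side read ratio reached down to 1.83, 1.51 and 1.51 in the order named. Component comp3897_c0 scored 511 and 631 in the wing, against 541 and 143 on the thumb side, so its digits were close and its interdigital libraries apart.

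The opposite direction was rarer and smaller. Component comp5194_c1 scored 494 and 542 in the wing, against 820 and 990 on the thumb side, a log2 difference of -0.80 (SE 0.20, limma adjusted p = 0.36). Component comp10004_c0 scored 153 and 106 in the wing, against 314 and 156 on the thumb side, a log2 difference of -0.79 (SE 0.37, limma adjusted p = 0.63), and of -0.26 without the digit I library. In both, the posterior bud had been the higher side. The labels do not map bud parts onto later digits, so the bud and later orders are only set side by side.

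Tested across all 20429 components, 0 of the 50 members were called in limma between wing and thumb side at an adjusted p under 0.05, where 2 components were called in all, 0.00979% of those tested. At an unadjusted p under 0.05, 14 members were higher in the wing and 3 lower, against 3.53% and 5.08% of all components. The calls changed with the scaling and variance settings. Once libraries were median-centred or variances shrunk robustly, 5 members were called, all higher in the wing (comp1674_c0, comp14421_c0, comp14504_c0, comp14355_c0 and comp12061_c0). Of all 20429 components, 54 were called higher and 100 lower under the first setting, and 62 and 131 under the second. The other alternatives are given in the closing section. In bulk libraries, fewer cells of a type and less RNA per cell cannot be told apart.

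**Figure D2:**
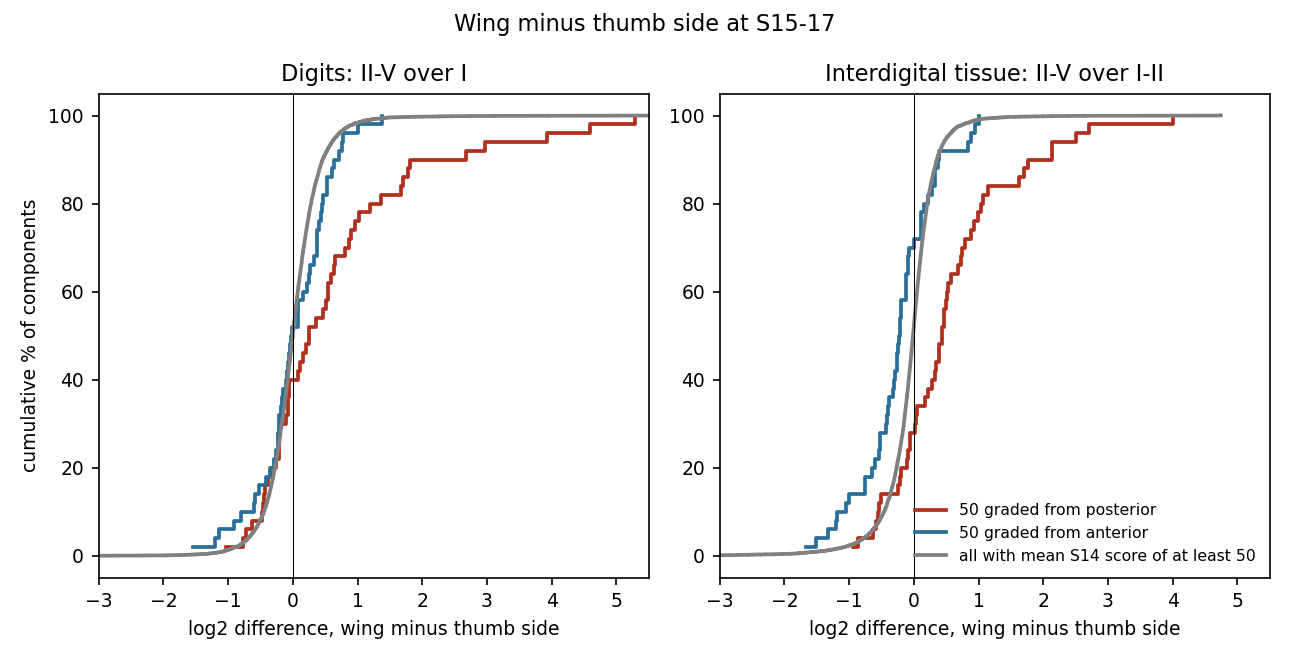
Cumulative share of components by the log2 difference, wing minus thumb side, between digits (left) and between interdigital tissues (right) at S15-17, for the 50 components graded from posterior, the 50 graded from anterior and all 12434 with the same minimum score. The curve of the posterior-graded components lies to the right, with medians of 0.25 and 0.43 against 0 and -0.01 for all.

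The mirror-image list, the 50 components most strongly graded from the anterior side in both buds, is given for comparison, without a test of the difference between the lists. Its median log2 difference between wing and thumb side was -0.15. Of its 50 components, 10 were higher in the wing in both tissues and 21 lower, while over 2-fold there were 0 higher and 1 lower. Its bud gradients were shallower, with a median log2 ratio of posterior to anterior of -0.76 in the forelimb and -0.59 in the hindlimb.

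**Figure D3:**
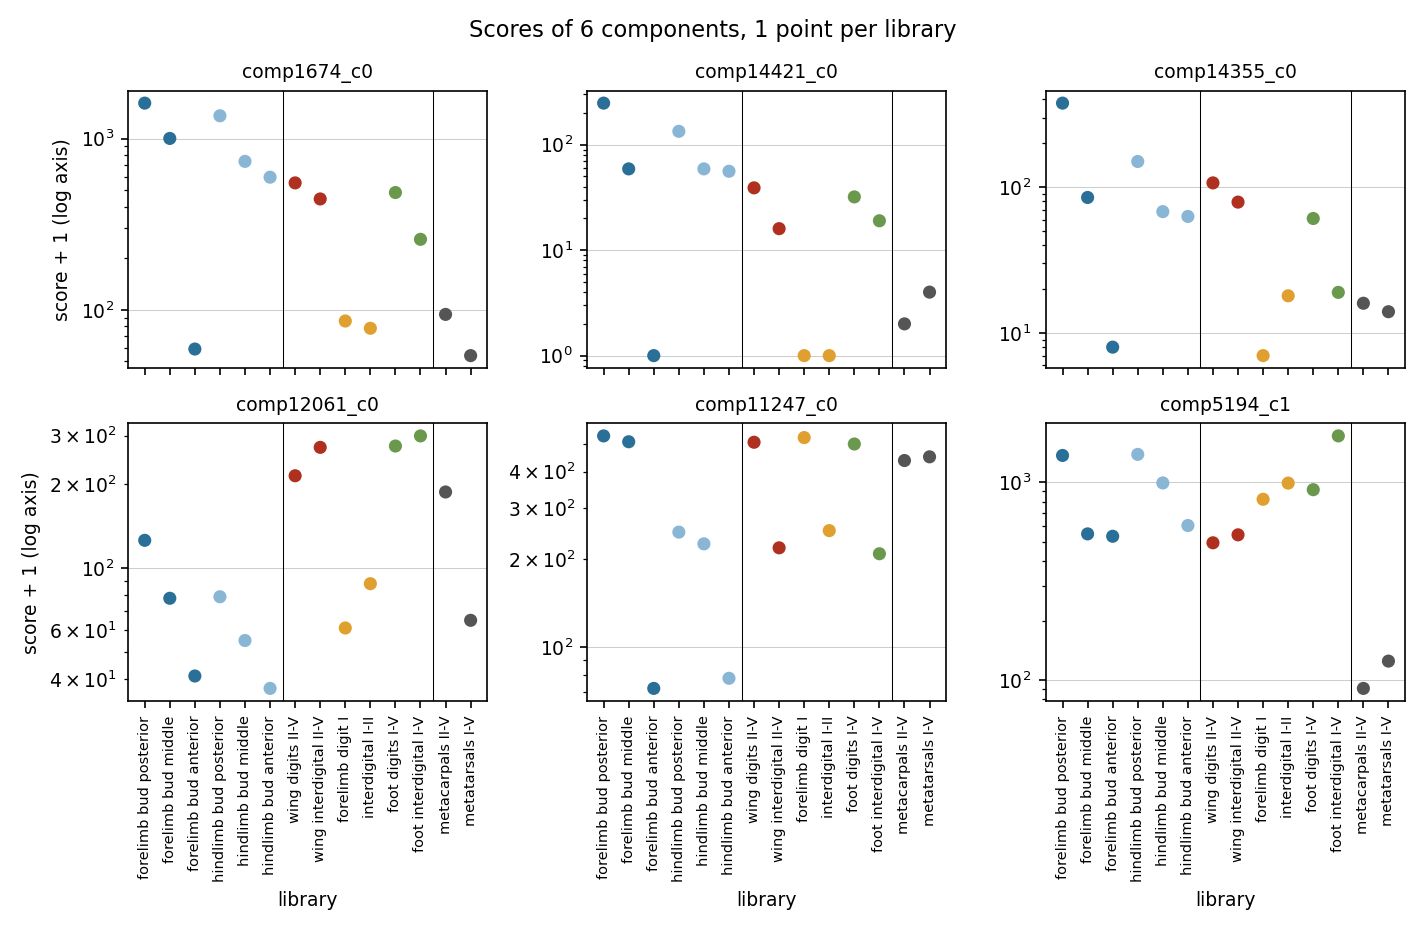
Scores of 6 components in the 14 libraries, as score + 1 on a log axis, 1 point per library, with the S14 buds, the S15-17 parts and the fetal bones separated by vertical lines (dark blue forelimb bud, light blue hindlimb bud, red wing, orange thumb side, green foot, grey fetal). In comp1674_c0, comp14421_c0 and comp14355_c0 the anterior forelimb bud and the thumb side are low together.

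Among the 50, components with a steeper forelimb bud gradient tended to have a larger later difference between wing and thumb side, with exceptions both ways. Component comp15974_c0, named after its values were seen, had a bud log2 ratio of 3.01 and a later difference of 0.02. For comp12061_c0 these were 1.62 and 1.72. In comp14421_c0 and comp14504_c0, at or near 0 in the anterior forelimb bud and on the thumb side, both differences depend on the 1 added to each score. The 10 components over 8-fold higher in the posterior than in the anterior forelimb bud had a median wing minus thumb side log2 difference of 1.72, all above 0, with 6 over 2-fold higher. The 11 components with a 4 to 8-fold bud gradient had a median of 0.48, the 17 with a 2 to 4-fold gradient 0.09, and the 12 with a gradient of up to 2-fold 0.09. Across the 50 components, Pearson's r between the forelimb bud log2 difference and the later one was 0.79 and Spearman's rho 0.56. Across the 12434 it was 0.27 and 0.06. Across the mirror-image list of 50 graded from anterior, r was 0.45 and rho 0.46, so the relation was not particular to the members. With the hindlimb bud gradient, the members had an r of 0.27 and a rho of 0.45. The bud and later libraries share no sample, but components are not independent replicates, so these are descriptions. For the wing minus foot difference the members had an r of 0.29 and a rho of 0.15, and the mirror-image list 0.48 and 0.37.

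**Figure D4:**
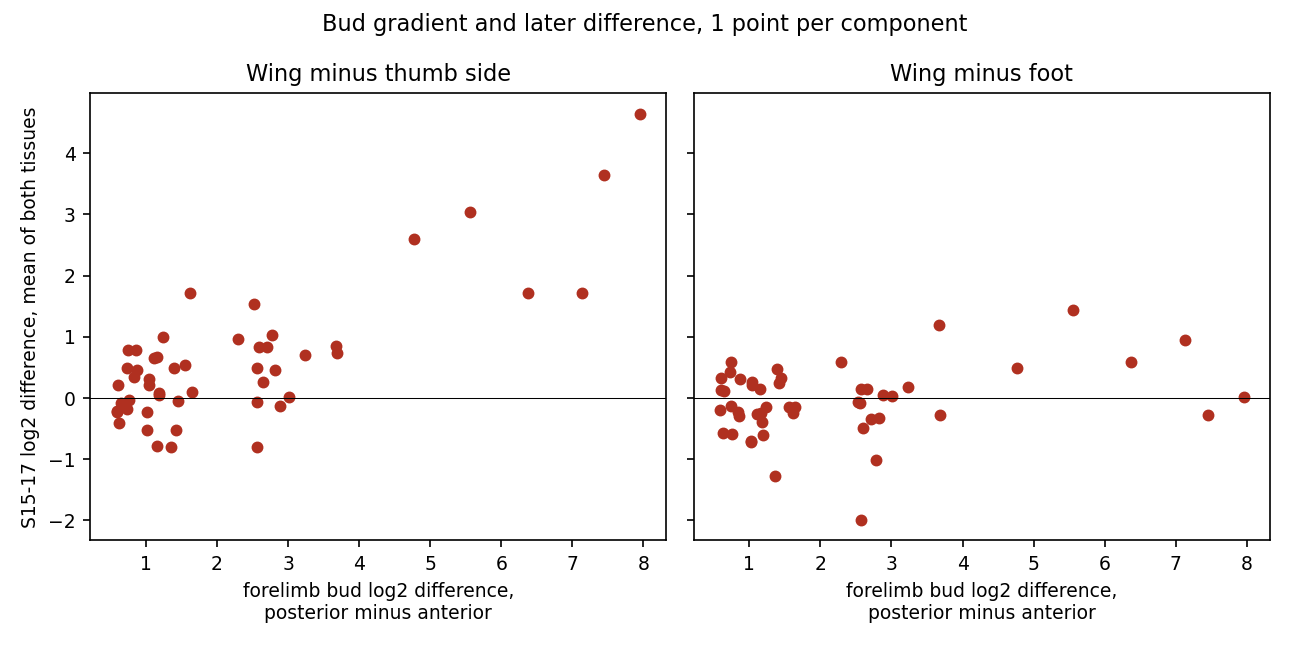
Each point is 1 of the 50 components, with its forelimb bud log2 difference, posterior minus anterior, on the x axis and its S15-17 log2 difference on the y axis, wing minus thumb side (left) or wing minus foot (right). The steepest components reach up to 4.64 on the left and stay between -0.28 and 1.43 on the right.

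Against the foot, whose libraries pooled digits I-V and so include its digit I, the members divided more evenly. The median wing minus foot log2 difference was -0.07 over the members and -0.04 over the 12434 components, and the fitted median of the members was 0.08 without the foot digit library. Of the 50, 13 were higher in the wing than in the foot in both tissues, against 18.6%, and 18 lower, against 30.8%. Over 2-fold, 2 were higher in the wing (0.571% of the 12434, 2.49% of the 20429) and 3 lower (1.07% and 3.32%). The thumb side scored lower than the foot in both tissues for 28 members, against 33.4% of the 12434, and higher for 5, against 25.5%. Both thumb side libraries lay below both foot libraries for 24 members, against 26%, and above both for 3, against 18.2%. It was over 2-fold below the foot for 14 members, against 0.981% of the 12434 and 3.37% of the 20429, and over 2-fold above it for 0, against 0.748% and 2.53%. The comparisons with the thumb side share its libraries, as those with the wing and the foot share theirs, so their counts do not support each other. The difference between thumb side and foot was not tested.

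The 2 components highest in the wing relative to the foot were comp14355_c0, described above, and comp14955_c0. Component comp14955_c0 scored 92 and 86 in wing digits and interdigital tissue, against 63 and 23 in the foot, with 26 and 92 on the thumb side. The wing libraries were even, while foot and thumb side each had a high and a low library. Both rested on the foot interdigital library. Without it the log2 difference of comp14955_c0 was 0.07, against 1.20 with it (SE 0.69, limma adjusted p = 0.66), and that of comp14355_c0 was 0.36, against 1.43 with it (SE 0.69, limma adjusted p = 0.62). Without the foot digit library they were 2.33 and 2.51. At the other end, comp10004_c0 scored 153 and 106 in the wing, against 406 and 640 in the foot, and comp5194_c1 scored 494 and 542, against 917 and 1715. Neither overlapped between wing and foot. In limma, 0 of 50 members were called between wing and foot, against 5 of 20429 components in all (0.0245%), and 0 members were higher and 3 lower at an unadjusted p under 0.05 (background 2.8% and 5.49%). The log2 difference of comp10004_c0 was -1.99 (SE 0.37, limma adjusted p = 0.28), and -1.28 without the foot interdigital library. That of comp5194_c1 was -1.28 (SE 0.20, limma adjusted p = 0.21). Both were called under median-centring, robust shrinkage and voom on recovered reads, which called 136, 182 and 182 of the 20429 components.

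Digits and interdigital tissue were compared within wing, thumb side and foot. The median log2 difference, digit minus interdigital, was 0.05 over the members and 0.05 over the 12434 components. In all 3 regions, 8 members were higher in digits, against 19.8%, and 7 lower, against 9.26%. Component comp11247_c0 had the largest difference, with 504, 523 and 497 in wing digits, digit I and foot digits, against 218, 250 and 208 in the interdigital tissue beside each. All 3 digit libraries were about equal and all 3 interdigital libraries lay far below them. It averaged 508 ± 13.5 in digits and 225 ± 21.9 in interdigital tissue (SD between regions, n = 3 regions with 1 library each, not repeats). Its wing and thumb side differed by -0.13 on the log2 scale (SE 0.16). Its digit minus interdigital log2 difference was 1.17 (SE 0.13, limma adjusted p = 0.066). It was called with a pseudocount of 5, median-centred libraries, robust shrinkage or voom. Those settings called 31, 197, 213 and 219 of the 20429 components. Component comp10594_c0 scored 77, 120 and 93 in digits, against 33, 64 and 39 in interdigital tissue (log2 difference 1.11, SE 0.24, limma adjusted p = 0.28). Component comp5139_c0 was lower in digits in each region, with 336, 293 and 377 against 499, 351 and 615 (-0.51, SE 0.14, limma adjusted p = 0.41). Component comp6721_c0, with 177, 190 and 154 against 274, 189 and 261, was lower in wing and foot digits and level on the thumb side (-0.46, SE 0.20, limma adjusted p = 0.59). In limma, 0 of the 50 members were called, against 4 of 20429 components (0.0196%), and at an unadjusted p under 0.05 there were 6 higher and 2 lower, against 5.14% and 3.4%.

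Forelimb and hindlimb buds were compared part by part, on the same S14 scores that chose the members, so the values are a description. The median forelimb minus hindlimb log2 difference of the members was 0.17 in the posterior, 0.04 in the middle and -0.54 in the anterior part, the last being the other side of the steeper forelimb gradient. In all 3 parts, 5 members were higher in the forelimb, against 14.1% of the 12434, and 14 lower, against 21.5%. Component comp11940_c0 scored 45, 22 and 7 in the posterior, middle and anterior forelimb bud, against 213, 102 and 91 in the hindlimb bud. Component comp9834_c0 scored 82, 15 and 0, against 203, 100 and 68. In both, each forelimb part was lower than its hindlimb counterpart. The most forelimb-leaning were comp10949_c0, with 344, 175 and 56 against 150, 87 and 55, and comp11247_c0, whose anterior parts were close. In limma with the part as block, 0 of all 20429 components were called (0%), members included, while 2187 had an unadjusted p under 0.05. At that level 0 members were higher and 6 lower, against 3.85% and 6.86% of all components, and nothing is read from this about the members, since the rule used these scores.

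From the buds to S15-17, the members went different ways. On the mean log2 score of the 6 libraries of each period, 13 were over 2-fold lower at S15-17 than at S14, against 4.36% of the 12434 components and 4.62% of the 20429, and 4 over 2-fold higher, against 3.04% and 10.9%. The count higher was thus above the share of the first set and below that of the second, which holds more scarce components. The S14 scores were part of the rule, and other parts were dissected at each period, so this was not tested. Component comp13586_c0 scored 38 to 63 at S15-17 against 83 to 552 in the buds. Component comp14440_c0 scored 19 to 64 at S15-17 against 71 to 408 in the buds. Both were low in every later limb region, with no overlap between the periods. Higher later were comp12215_c0, at 195 to 373 against 57 to 137 in the buds, with no overlap, and comp6624_c0, at 231 to 512 against 36 to 347. Members lower than every bud library in all 6 S15-17 libraries numbered 5, against 18.9%, and members higher than every bud library numbered 2, against 5.29%. The rule took members for a wide spread over the buds with a low anterior part, which bears on any count against all 6 bud libraries, so nothing is read from these shares.

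In the fetal bones the 50 components spread further. Both fetal libraries were below all bud libraries for 12 members, against 50.5% of the 12434, and above all for 11, against 19.7%, and for the same reason nothing is read from these shares. Component comp1674_c0 scored 93 in metacarpals and 53 in metatarsals, near its thumb side level, and comp14421_c0 scored 1 and 3. Metacarpals were over 2-fold above metatarsals for 9 members, against 5.81% of the 12434 and 9.5% of the 20429, and over 2-fold below for 8, against 4.54% and 8.35%. Component comp2292_c0 scored 1689 in metacarpals and 188 in metatarsals, a read ratio of 8.97 (exact 95% interval 7.42 to 10.9), while its S15-17 score was 247 in wing digits and 372 in foot digits. Component comp5486_c0 scored 803 and 203, a ratio of 3.96 (3.27 to 4.84). Component comp9834_c0 had no metacarpal read and scored 26 in metatarsals, so it was at least 6.65-fold lower in metacarpals against a floor of 3 reads (exact 95% interval of the ratio up to 0.208), and comp11940_c0 scored 3 and 26. Components comp9834_c0 and comp11940_c0 had also been lower in forelimb than in hindlimb buds. With 1 library per bone there is no replicate check.

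**Figure D5:**
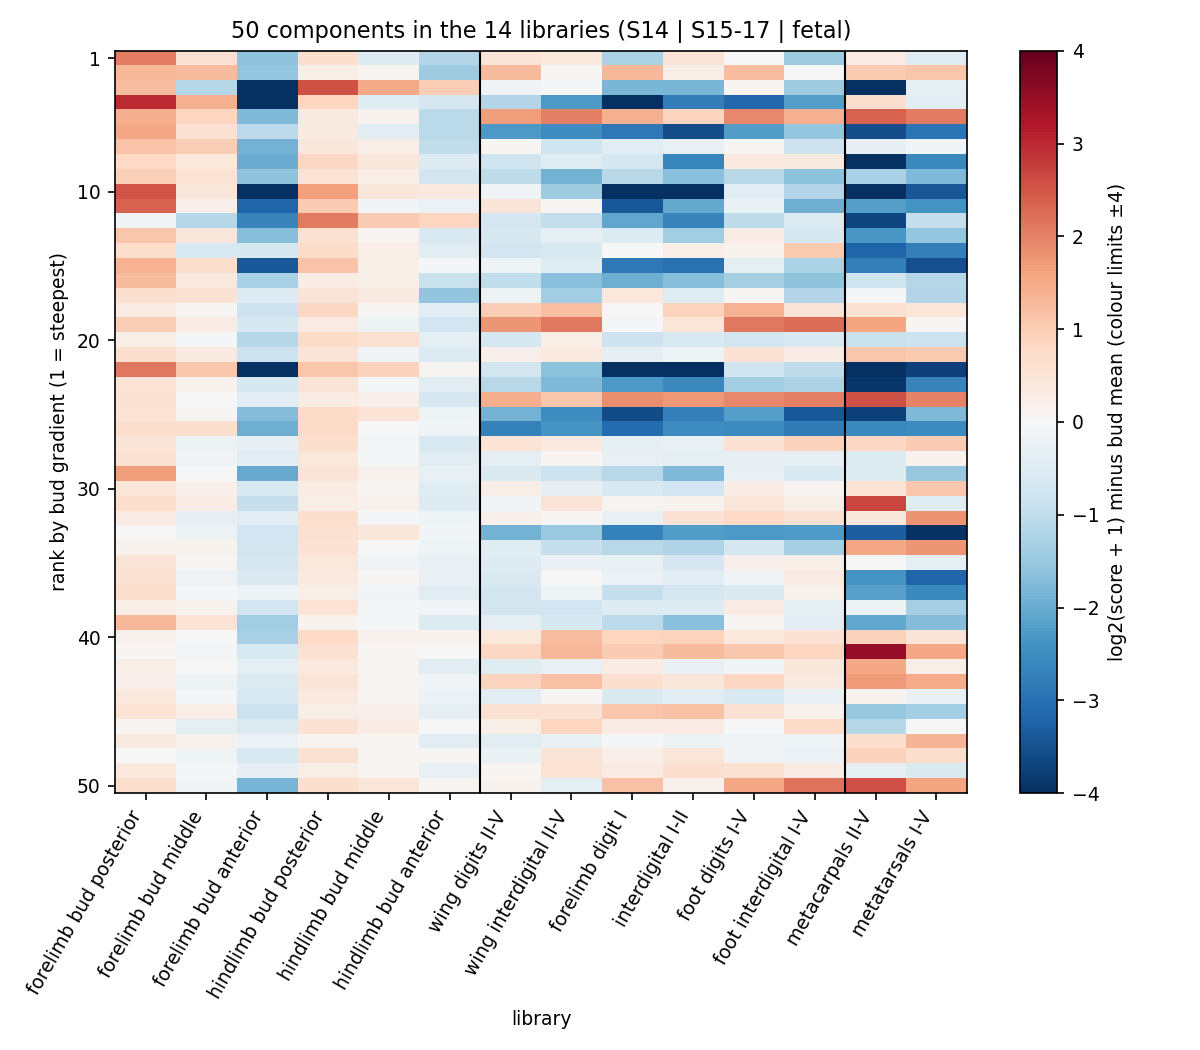
Log2(score + 1) of the 50 components, ordered by bud gradient from rank 1 at the top to rank 50, in the 14 libraries, each relative to the component's mean over the 6 bud libraries (red higher, blue lower, colours limited to ±4). The dark blue cells of the anterior forelimb bud recur on the thumb side for a few of the upper ranks, and fetal colours run to both ends of the scale.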

How the data were processed

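The deposited table holds a score per component and library, a normalized count that the authors rounded to whole numbers. CASAVA 1.8, RSEM and edgeR are named in the submitters' processing notes, without their roles. The normalization, the assembly and the build are not given in the sources used here. Low scores fell on rounded multiples of a step per library. Dividing by that step gave whole reads, and the lowest share of nonzero scores in a library that matched a whole number of steps after rounding was 99.9855%. They were used for counting intervals and for voom only, since the scores are not raw counts and no count model was run.

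Members were taken by the rule in the text. They, the lists and the tests were chosen with earlier results of these data known. To log2(score + 1) of the 20429 components averaging 10 or more, limma 3.58.1 (R 4.3.3) was fitted with its trend option. The 1 added shrinks the log2 differences of scarce components. All 6 S15-17 libraries entered 1 fit with tissue and region as factors, and the 6 buds another with limb and part. Each fit left 2 residual degrees of freedom. The sources used here do not say whether libraries share embryos. Adjusted p-values are Benjamini-Hochberg over all fitted components, two-sided, and calls were made under 0.05. All 50 members passed the filter through the minimum of their rule. The fits were also run on simulated scores with a fixed spread and planted changes. Those scores held no further differences between unlike parts, so they do not show how the calls behave on the real libraries. Intervals are exact 95% intervals and, like the floor of 3 reads, cover counting error only. Python 3.11.15 with pandas 2.3.3 and scipy 1.17.1 was used besides.

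Named by rule were the 2 components with the largest gradient, those beside the limit of the list and, per comparison, the 2 members with the largest and the 2 with the smallest difference. Others are marked as named after their values were seen. Tried besides were adding 0.25 or 5 in place of 1, dropping the filter, upper-quartile scaling over the fitted components, median-centred libraries, robust shrinkage, voom on recovered reads, no block, fits of only the 4 libraries compared, leaving out each library, and other limits of the rule. Upper-quartile scaling over the nonzero components of each library was added after seeing the data.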

Additional observations from a re-analysis of the deposited data

How the results depend on the processing

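No member passed the threshold in any comparison as reported, and no refitted difference of a named member changed sign. For wing minus thumb side, 2 components were called as reported, 1 higher and 1 lower. The count was 0 when 0.25 was added to scores, when the filter was dropped, when the tissue block was dropped and in the fit of the 4 libraries compared. It was 16 when 5 was added, 11 (4 higher) under upper-quartile scaling, 50 (27 higher) under that scaling over nonzero components, 154 (54 higher) under median-centring, 193 under robust shrinkage and 155 (57 higher) under voom. Members among these numbered 1 when 5 was added and 1 under upper-quartile scaling (comp1674_c0 in both), 5 under scaling over nonzero components, 5 under median-centring, 5 under robust shrinkage and 4 under voom. For wing minus foot, 5 were called as reported (4 higher), 1 when 0.25 was added, 8 when 5 was added, 0 without the filter, 48 (20 higher) under scaling over nonzero components, 136 (67 higher) under median-centring, 182 under robust shrinkage, 182 (87 higher) under voom and 1 without the tissue block. Members among them were 1 under scaling over nonzero components and 2 under each of median-centring, robust shrinkage and voom. For digit minus interdigital tissue, 4 were called as reported, all higher, and 0 when 0.25 was added, without the filter or without the region block. When 5 was added there were 31 with 1 member, under scaling over nonzero components 724 (52 higher, 672 lower) with 3 members, under median-centring 197 (156 higher) with 1 member, under robust shrinkage 213 with 2 members and under voom 219 (158 higher) with 1 member. For the limb buds, 0 were called as reported, 2 when 5 was added, 3 under scaling over nonzero components, 21 under median-centring, 150 under robust shrinkage, 72 under voom and 8 without the position block, with 1 member each under robust shrinkage and voom. The cause of these changes was not tested. Scaling over nonzero components moved the median of all components by -0.62 for digit minus interdigital tissue, by 0.16 for the limb buds and by 0.12 for wing minus thumb side. The member median under it was -0.52 for digit minus interdigital tissue, 0.07 above the median of all components, -0.13 for wing minus foot and 0.08 for the limb buds, where it was -0.09 as reported.

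With 1 library left out, wing minus thumb side had 0 to 2 calls, with 0 for each library but the thumb side interdigital one, and a member median of 0.23 to 0.46. Wing minus foot had 0 to 6 calls, with 0 for any wing or foot library, and a member median of -0.12 to 0.08 (0.0796 without foot digits). Digit minus interdigital tissue had 0 to 45 calls, with 45 without digit I, 25 without the thumb side interdigital library and 0 without any other, and a member median of -0.03 to 0.08. The limb buds had 0 calls and a member median of -0.23 to 0.13, above 0 without either anterior bud. Members called were 0 in each of these fits. Of 280 refitted differences of named members, 247 stayed on the same side of the threshold and 33 passed it. Libraries could not be paired by embryo, because the labels do not say which libraries share embryos. Matched parts were paired through the tissue, region and position blocks instead, whose removal is given above.

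The median wing minus thumb side log2 difference was 0.83 for the 25 steepest components, 0.46 for the 50 and 0.15 for 100. It was 0.67 with a minimum mean S14 score of 20, which shared 29 of the 50, and 0.19 with a minimum of 200, which shared 20. Scaling over nonzero components before the choice kept 21 of the 50 and upper-quartile scaling 45. The median log2 ratio of S15-17 to S14 was -0.33 for the 50, -0.64 for the 25 steepest and -0.0139 for the list chosen after scaling over nonzero components. The share over 2-fold higher in metacarpals was 18% as reported and 30% in that list. Depth limits the scarcest members: the pooled wing and thumb side libraries held as few as 21 reads of a member, and the 2 fetal libraries together as few as 1.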
